A study of Mus musculus with 23 samples.

Results

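The genes described here are 10 genes of extracellular matrix glycoproteins and proteoglycans, namely Sparc, the fibulins Fbln1 and Fbln2, the fibrillins Fbn1 and Fbn2, the large proteoglycans Acan and Vcan, and Ibsp, Postn and Tnc. They were taken by symbol from the 53402 gene identifiers of a count table of mouse medullary thymic epithelial cells (mTECs). All 10 were among the 19310 genes that passed a filter on low counts. Sparc, Fbln2, Fbn1 and Acan were chosen by their CPM in the groups of these same libraries, where they had stood out, and the other 6 were added with those values known. Differences of Sparc, Fbln2, Fbn1 and Acan between the groups are therefore given as a description, without a test. Acan and Ibsp reached the filter only through WT mTEChi, where they were high (at least 4 libraries had to exceed it), so the values of Ibsp are given without a test as well. The remaining 5 were tested with edgeR's quasi-likelihood method over all 19310 genes, and their tests speak for single genes only.

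The libraries were bulk RNA sequencing of sorted cells from the thymus of C57BL/6 mice, either wild type (WT) or Aire knockout (KO). Live cells negative for CD45 and Ly51 and positive for EpCAM were sorted by MHC class II into a high gate (mTEChi) and a low gate (mTEClo). WT mTEClo had 8 libraries (5 male and 3 female, 5 of them at 4 weeks of age and 3 at 5 weeks), and WT mTEChi had 7 (5 male and 2 female, 2 at 4 weeks and 5 at 5 weeks). KO mTEClo and KO mTEChi had 4 libraries each, all male, with 2 at 5 weeks and 2 at 6 weeks in either gate. The labels describe neither the KO allele nor the animals behind a library, so p-values measure the spread between these libraries, which may be technical. Age differed between the genotypes, with 4 weeks only in WT and 6 weeks only in KO, and it was tested within WT. Levels are counts-per-million values (CPM) scaled with edgeR, and changes are log2 fold changes with their standard error (SE).

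In the thymus, mTECs make proteins that otherwise belong to other organs, so that T cells reacting to them can be removed. Aire, a nuclear protein of mature mTECs with high MHC class II, is known to be needed for many of those genes. The genes of this set encode proteins better known from connective tissue, cartilage and bone. Fibrillins build the microfibrils on which elastic fibres form, and fibulins are bridging glycoproteins bound to such fibres and to basement membranes. Aggrecan (Acan) and versican (Vcan) are proteoglycans that bind hyaluronan, aggrecan being the main one of cartilage. Sparc, periostin (Postn), tenascin C (Tnc) and bone sialoprotein (Ibsp) tune how cells attach to collagen and fibronectin or how bone mineral forms.

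Promoters are shown for Tnc, which was higher in every KO mTEChi library, and for Postn, Vcan and Acan, which were lower in every one. Each sequence is the 120 bases before a start site given by RefSeq on GRCm38.p6, read 5′ to 3′ on the gene's strand and lying outside the gene's own exons. The windows were chr4:64047016-64047135 on the minus strand for Tnc, chr3:54360987-54361106 on the plus strand for Postn, chr13:89742513-89742632 on the minus strand for Vcan, and chr7:79053106-79053225 on the plus strand for Acan. Capitals mark a TATA box, searched as TATAAA or its reverse complement TTTATA, or a GC box, searched as GGGCGG or its reverse complement CCGCCC, on both strands.
Tnc: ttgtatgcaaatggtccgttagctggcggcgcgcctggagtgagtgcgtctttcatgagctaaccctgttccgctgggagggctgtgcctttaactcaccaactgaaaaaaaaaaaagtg
Postn: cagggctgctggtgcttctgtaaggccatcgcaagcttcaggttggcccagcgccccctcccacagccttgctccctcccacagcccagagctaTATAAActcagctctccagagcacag
Vcan: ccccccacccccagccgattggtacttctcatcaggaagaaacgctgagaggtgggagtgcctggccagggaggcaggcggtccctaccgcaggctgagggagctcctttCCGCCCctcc
Acan: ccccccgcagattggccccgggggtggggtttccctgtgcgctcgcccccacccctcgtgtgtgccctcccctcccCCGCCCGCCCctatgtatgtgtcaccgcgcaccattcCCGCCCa

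The Postn window held 1 TATA box, which began 26 bases before the start, and no GC box. In the Acan window there were 3 GC boxes on the opposite strand, beginning 44, 40 and 7 bases before the start, the first pair overlapping. Vcan had 1 GC box at 10 bases, and the Tnc window held neither motif. Of 32851 promoter windows of the same length, 6.34% held the TATA letters and 26.5% the GC letters. CG dinucleotides numbered 10 in the Acan window, 6 in that of Tnc, 5 in that of Vcan and 2 in that of Postn, where the median window had 3. Among the members without a printed window, Ibsp held 1 TATA box on the opposite strand, at 28 bases, Fbln2 held 1 GC box, and so did the window of 1 of 2 starts of Fbln1. Postn has another start in the table, whose window held neither motif. RefSeq windows were matched for 9 of the 10 members, and that of Fbn2 was not used here.

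The labels were checked first. Aire stood between 753 and 921 CPM in WT mTEChi and between 17.1 and 39.3 CPM in KO mTEChi. It lay between 19.6 and 128 CPM in WT mTEClo and between 0 and 7.58 CPM in KO mTEClo. Epcam, the epithelial surface marker of the sort, was at 202 to 324 CPM over all libraries, and Ptprc, the gene of the CD45 used to exclude blood cells, at 9.64 to 35.9 (WT) and 5.43 to 6.96 CPM (KO) in mTEChi and at 13.6 to 26.1 (WT) and 4.38 to 16.8 CPM (KO) in mTEClo. In mTEChi the genotypes did not overlap for Ptprc, and its part in the results was not tested. All 10 thymic epithelial markers had a mean of at least 10 CPM in each group. Library totals ran from 1602125 to 3938588 counts, and 6 libraries (replicates 1 and 2 of WT mTEClo, KO mTEClo and WT mTEChi) had under 2000000 (here called shallow). A different 6 libraries stood apart: replicates 3 and 4 of KO mTEClo and all 4 of KO mTEChi had no count on any mitochondrially encoded gene, against 0.261% to 0.527% of counts in the others. In those 6 libraries, 22 genes with at least 10 CPM elsewhere were listed at 0, of which 13 are not mitochondrial. In mTEChi this difference and the genotype cannot be told apart. In KO mTEClo it splits the 4 libraries along the same line as age (5 and 6 weeks) and depth, replicates 1 and 2 being shallow.

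**Figure D1:**
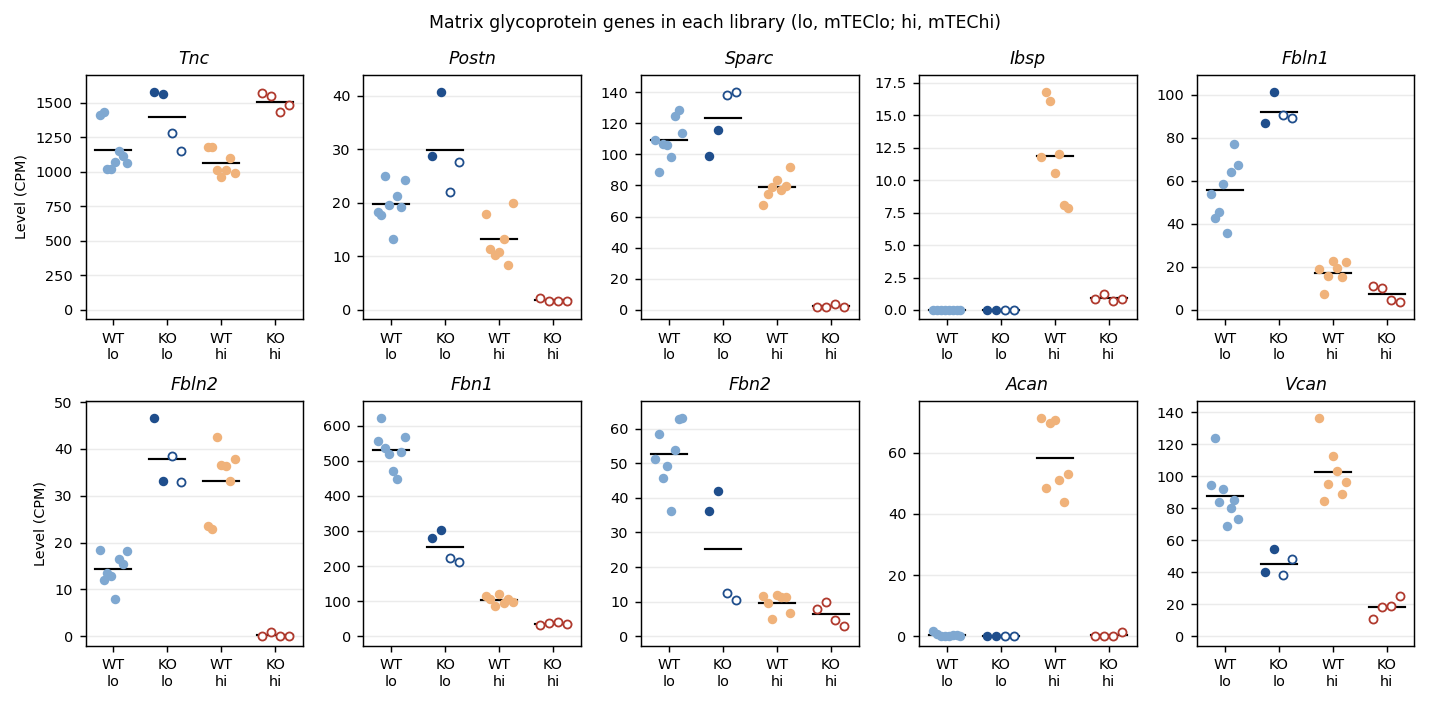
Level of each of the 10 genes in every library, in CPM on a linear axis that differs between genes, with 1 point per library and a bar at the group mean. Open points are the 6 libraries without mitochondrial counts. In KO mTEChi, Sparc, Fbln2, Acan, Ibsp and Postn lie near 0 while Tnc is at 1432 to 1569 CPM.

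In mTEChi without Aire, most of the set was lower and Tnc was higher. Of the 10 genes, 7 were lower in every KO library than in every WT library, 1 was higher and 2 overlapped. Over all genes tested, 38% did not overlap (19.8% lower and 18.2% higher), but the choice of the first 4 members used these values, so nothing is read from the comparison. Of the 5 tested genes, 3 passed as lower (Postn, Vcan and Fbln1), 1 passed as higher (Tnc) and Fbn2 did not pass. Among all genes 53.7% passed (28% as lower and 25.7% as higher). These are bulk libraries, so fewer cells with a transcript and less of it per cell cannot be told apart.

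In mTEClo the same loss of Aire went with a different pattern. Every KO library was higher than every WT library for Fbln1 and Fbln2 and lower for Fbn1 and Vcan, and the groups overlapped for the other 6. Among all genes 11.7% did not overlap (5.86% higher and 5.79% lower). The choice of Fbln2 and Fbn1 used these values, so nothing is read from that comparison. Of the 5 tested genes, 1 passed as higher (Fbln1) and 2 as lower (Vcan and Fbn2), where 12% and 9.69% of all genes did, 21.7% together. No fold was formed for Ibsp and Acan, which were at or near 0 in this gate.

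**Figure D2:**
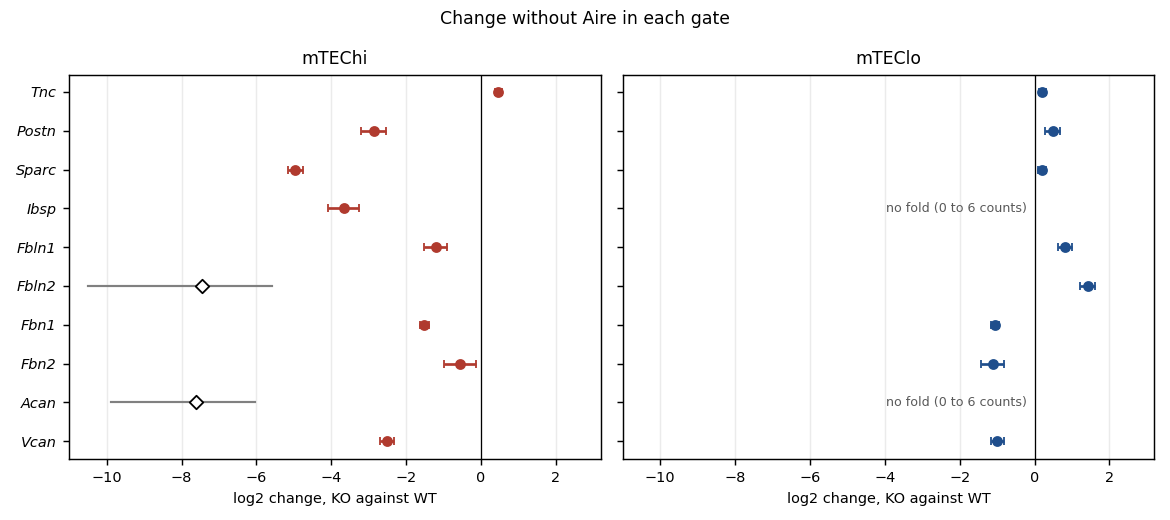
log2 change from WT to KO in mTEChi (left) and mTEClo (right) for each gene, with the SE as the error bar. Open diamonds are ratios of summed counts where KO had 1 to 3 counts, with the exact 95% counting interval. In mTEChi the values run from far below 0 for Fbln2 and Acan to 0.46 for Tnc, and in mTEClo from -1.12 for Fbn2 to 1.42 for Fbln2.

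Among the matricellular proteins, which sit in the matrix without forming its framework, Sparc (ENSMUSG00000018593, chromosome 11, 55394500 to 55423183 on the minus strand of GRCm38) was close to absent from KO mTEChi. Sparc binds collagen and helps it assemble. Its levels in WT mTEChi ran from 67.5 to 92.1 CPM with a median of 79.3, and in KO mTEChi they were 2.19, 2.05, 3.77 and 1.67 CPM. In WT mTEClo they ran from 88.4 to 128 CPM with a median of 108, and in KO mTEClo they were 99.1, 116, 138 and 140.1 CPM. The 4 KO mTEChi libraries lay below the other 19, whereas the KO and WT libraries of mTEClo overlapped. The mean in mTEChi was 79.1 ± 7.66 CPM in WT (SD, n = 7) against 2.42 ± 0.92 CPM in KO (n = 4), and the log2 change was -4.96 ± 0.20. In mTEClo the change was 0.20 ± 0.11, and it was below 0 under 4 alternatives, such as -0.20 with an age term. The libraries at 138 and 140.1 CPM in KO mTEClo are those without mitochondrial counts.

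Postn (ENSMUSG00000027750, chromosome 3, 54361109 to 54391037 on the plus strand), a matrix protein of periosteum, ligament and scar tissue, fell in KO mTEChi as well. Its levels were 8.39 to 19.99 CPM in WT mTEChi, with a median of 11.4, and 2.19, 1.64, 1.71 and 1.67 CPM in KO mTEChi. In mTEClo they were 13.2 to 24.99 CPM in WT, with a median of 19.4, and 28.7, 40.7, 22.04 and 27.7 CPM in KO. The genotypes were apart in mTEChi, and 1 KO mTEClo library lay within the WT range. The log2 change was -2.87 ± 0.33 in mTEChi (edgeR adjusted p = 3.7e-08) and 0.49 ± 0.20 in mTEClo (adjusted p = 0.08). The difference between those changes was -3.36 ± 0.38 (adjusted p = 1.7e-07). Of the mTEClo value, adjusted p was 0.031 without a sex term, 0.049 without KO mTEClo replicate 3 and 0.037 without the 6 libraries lacking mitochondrial counts.

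Ibsp (ENSMUSG00000029306, chromosome 5, 104299171 to 104311469 on the plus strand), a mineral-binding sialoprotein of bone, was counted in mTEChi and listed at 0 in all 12 mTEClo libraries. In WT mTEChi it stood at 7.85 to 16.8 CPM with a median of 11.8, and in KO mTEChi at 0.88, 1.23, 0.68 and 0.84 CPM, so the genotypes did not overlap. The fitted change from WT to KO mTEChi was -3.66 ± 0.42, on 9 counts in KO. With 214 counts in WT mTEChi and none in WT mTEClo, the level was at least 94.1-fold higher in mTEChi, taken against the limit of 3 counts over the group. In KO the 9 counts of mTEChi gave at least 3.26-fold. The floor of 3 counts corresponded to 0.122 CPM over WT mTEClo and 0.275 CPM over KO mTEClo, and such limits cover counting error only. No KO mTEChi library has mitochondrial counts, and since the gene is at 0 in mTEClo there was no value within KO to set beside this.

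Tnc (ENSMUSG00000028364, chromosome 4, 63959785 to 64047015 on the minus strand), an adhesion-modulating glycoprotein of embryonic and wounded tissue, was by far the most abundant member. Its levels were 961 to 1182 CPM in WT mTEChi, with a median of 1016, and 1569, 1546, 1432 and 1483 CPM in KO mTEChi. In mTEClo they were 1019 to 1432 CPM in WT, with a median of 1093, and 1577, 1562, 1280 and 1152 CPM in KO. Every KO mTEChi library lay above every WT one, and in mTEClo the genotypes overlapped. Tnc rose by 0.46 ± 0.10 in mTEChi (edgeR adjusted p = 2.1e-04), while the change of 0.21 ± 0.10 in mTEClo did not pass (adjusted p = 0.12). In mTEClo it passed under 8 alternatives, among them an age term (0.41, adjusted p = 0.029), the replicate block (0.21, adjusted p = 0.048) and leaving out KO mTEClo replicate 4 (0.28, adjusted p = 0.04). The difference between the gates, 0.25 ± 0.13, did not pass (adjusted p = 0.17). Without the 6 libraries under 2000000 counts it was 0.39 (adjusted p = 0.0034). Reads of Tnc cannot be told apart from those of 8030451A03Rik, which shares 176 exonic bases with it on the opposite strand and had 1736 counts in all.

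Both fibulins were lower on average in KO mTEChi and higher in KO mTEClo. Fbln2 (ENSMUSG00000064080, chromosome 6, 91212455 to 91272540 on the plus strand) stood at 22.8 to 42.5 CPM in WT mTEChi with a median of 36.3. In KO mTEChi it was at 0, 0.82, 0 and 0 CPM. In mTEClo it was at 7.89 to 18.4 CPM in WT, with a median of 14.5, and at 46.6, 33.2, 38.4 and 33.02 CPM in KO. No library of one genotype reached the range of the other in either gate, KO being low in mTEChi and high in mTEClo. With 646 counts in WT mTEChi and 2 in KO mTEChi, the WT level was 174 times the KO level (exact 95% counting interval 48 to 1441), and both KO counts were in replicate 2. In mTEClo the log2 change was 1.42 ± 0.20, from 14.4 ± 3.53 CPM (SD, n = 8) to 37.8 ± 6.35 CPM (n = 4). With an age term that change was 0.98. In KO the level in mTEClo was 186 times that in mTEChi (51.1 to 1539), whereas in WT the log2 change from mTEClo to mTEChi was 1.25 ± 0.17. The KO mTEClo libraries without mitochondrial counts are those at 38.4 and 33.02 CPM.

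Fbln1 (ENSMUSG00000006369, chromosome 15, 85205949 to 85286535 on the plus strand), which encodes a fibulin of basement membranes and blood plasma, passed in both gates with opposite signs. In WT mTEChi it was at 7.2 to 22.96 CPM with a median of 19.2, and in KO mTEChi at 10.97, 10.2, 4.45 and 3.76 CPM. In WT mTEClo it was at 35.9 to 77.2 CPM with a median of 56.4, and in KO mTEClo at 87.2, 101, 90.5 and 89.4 CPM. WT mTEChi replicate 2, at 7.2 CPM, made the groups overlap in that gate, while in mTEClo they were apart. The log2 change was -1.21 ± 0.30 in mTEChi (edgeR adjusted p = 0.0014) and 0.81 ± 0.20 in mTEClo (adjusted p = 0.004), and their difference was -2.03 ± 0.34 (adjusted p = 8.9e-05). In mTEClo the change did not pass with an age term (0.58, adjusted p = 0.23) or in male libraries of 5 weeks alone (0.55, adjusted p = 0.089), where WT had 1 library. Within KO mTEChi the libraries of 5 weeks had a mean of 10.6 CPM and those of 6 weeks 4.11 CPM.

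The fibrillins were higher in mTEClo than in mTEChi, and both had a lower mean without Aire in mTEClo. For Fbn2 that lower mean came mostly from KO mTEClo replicates 3 and 4, as described below. Fbn1 (ENSMUSG00000027204, chromosome 2, 125300594 to 125507993 on the minus strand) encodes the main microfibril protein of adult tissue. It ran from 448 to 621 CPM in WT mTEClo with a median of 530.2, and was at 279, 302, 224 and 211 CPM in KO mTEClo. In WT mTEChi it ran from 87.5 to 121 CPM with a median of 105, and in KO mTEChi it was at 32.9, 36.4, 40.4 and 33.8 CPM. All 4 groups were separate, and KO was low in both gates. The log2 change was -1.07 ± 0.11 in mTEClo and -1.52 ± 0.13 in mTEChi. It was -0.63 in mTEClo in male libraries of 5 weeks alone. From mTEClo to mTEChi the level changed by -2.36 ± 0.09 in WT and -2.81 ± 0.13 in KO. Fbn1 overlaps Gm9913, which had 48 counts in all.

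Fbn2 (ENSMUSG00000024598, chromosome 18, 58008623 to 58210487 on the minus strand), the fibrillin best known from developing tissue, differed between the libraries of KO. In KO mTEClo replicates 1 and 2, of 5 weeks, it stood at 36.3 and 41.95 CPM, and in replicates 3 and 4, of 6 weeks and without mitochondrial counts, at 12.5 and 10.4 CPM. WT mTEClo ran from 36.1 to 62.96 CPM with a median of 52.4. Replicates 1 and 2 of KO thus lay within the WT range but below its median, and replicates 3 and 4 far below the range. In KO mTEChi the levels were 7.9, 9.82, 4.79 and 2.92 CPM, against 4.998 to 11.8 CPM in WT mTEChi with a median of 11.3. The edgeR change of -1.12 ± 0.31 in mTEClo passed (adjusted p = 0.011). It did not pass without KO mTEClo replicate 3 (-0.87, adjusted p = 0.057), without the 6 libraries lacking mitochondrial counts (-0.34, adjusted p = 0.28) or with an age term (-0.62, adjusted p = 0.37). The change of -0.55 ± 0.43 in mTEChi did not pass (adjusted p = 0.29), and it was 1.22 (adjusted p = 0.027) with a term for those 6 libraries. Within mTEChi that term is the same as the genotype. Its size came only from KO mTEClo replicates 3 and 4 against 1 and 2, so nothing about mTEChi is read from the 1.22. In KO mTEClo age, depth and the missing mitochondrial counts split the libraries along the same line and cannot be told apart. In KO mTEChi no library has mitochondrial counts and none is shallow, and Fbn2 had a mean of 8.86 CPM at 5 weeks (n = 2) and 3.86 CPM at 6 weeks (n = 2). From mTEClo to mTEChi, Fbn2 changed by -2.43 ± 0.27 in WT (adjusted p = 1.7e-08) and by -1.86 ± 0.42 in KO (adjusted p = 5.0e-04). The difference between its KO changes in the gates was 0.57 ± 0.52 (adjusted p = 0.46), and 1.59 without the 6 shallow libraries (adjusted p = 0.0073).

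Of the hyaluronan-binding proteoglycans, Acan (ENSMUSG00000030607, chromosome 7, 79053483 to 79115099 on the plus strand) was seen almost only in WT mTEChi. There it ran from 43.9 to 71.2 CPM with a median of 53.2, or 1080 counts in all. In KO mTEChi it was at 0, 0, 0 and 1.25 CPM, or 3 counts, all in replicate 4. It was listed at 0 in the 4 libraries of KO mTEClo and in 4 of the 8 of WT mTEClo, where the highest value was 1.72 CPM. WT mTEChi was thus apart from all other groups. The WT mTEChi level was 194 times that of KO mTEChi (exact 95% counting interval 66.2 to 942). From WT mTEClo to WT mTEChi the fitted log2 change was 7.65 ± 0.35, resting on 6 counts in mTEClo, 3 of them in replicate 1. It was 8.38 without that library and 8.75 without the 6 shallow libraries. In KO both gates were at or under 3 counts and no fold was formed.

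Vcan (ENSMUSG00000021614, chromosome 13, 89655312 to 89742509 on the minus strand), the versican of loose connective tissue and vessel walls, was found in both gates and lower in KO in both. Its levels were 84.6 to 136 CPM in WT mTEChi, with a median of 96.8, and 10.5, 18.0, 18.8 and 25.5 CPM in KO mTEChi. In mTEClo they were 68.7 to 124.0 CPM in WT, with a median of 84.4, and 40.1, 54.5, 38.1 and 48.3 CPM in KO. KO and WT did not overlap in either gate. Vcan fell by 2.52 ± 0.19 in mTEChi (edgeR adjusted p = 2.1e-11) and by 0.99 ± 0.17 in mTEClo (adjusted p = 7.9e-05), and the difference of -1.53 ± 0.24 passed (adjusted p = 2.7e-05). Between the WT gates the change of 0.23 ± 0.12 did not pass (adjusted p = 0.093). It was 0.30 with RLE size factors (adjusted p = 0.032), 0.30 with DESeq2 (adjusted p = 0.036) and 0.31 without WT mTEClo replicate 2 (adjusted p = 0.023).

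The gates were also compared with each other, first in WT. From mTEClo to mTEChi, every library was higher for Fbln2, Acan and Ibsp, every library was lower for Fbln1, Fbn1 and Fbn2, and 4 genes overlapped. Among all genes 44.4% did not overlap between these groups (24.8% higher and 19.5% lower). The choice of Fbln2, Acan and Fbn1 used these values, and Acan and Ibsp reached the filter only through WT mTEChi. Nothing is therefore read from that comparison. Of the 5 tested genes 0 passed as higher and 3 as lower (Fbln1, Fbn2 and Postn), where 36.7% and 33.4% of all genes did, 70.1% together. Fbln1 fell by 1.64 ± 0.18 (edgeR adjusted p = 1.1e-08) and Postn by 0.63 ± 0.17 (adjusted p = 0.0021), while the value for Tnc was -0.14 ± 0.08 (adjusted p = 0.12), which passed with the replicate block (-0.14, adjusted p = 0.047) and without KO mTEClo replicate 2 (-0.17, adjusted p = 0.041). In male libraries of 5 weeks alone the adjusted p of Postn was 0.075. In KO, 7 of the 10 were lower in every mTEChi library, 1 was higher and 2 overlapped, where 47.2% of all genes did not overlap (22.1% lower and 25% higher). The choice of Sparc, Fbln2 and Fbn1, all among the lower genes, used these values. The higher one was Ibsp, which reached the filter only through WT mTEChi. Nothing is read from this comparison either. Of the 5 tested genes 4 passed as lower and 0 as higher in KO, against 28% and 29.2% of all genes, 57.2% together. The WT and KO gate comparisons share libraries with the genotype comparisons above, so the values are set side by side only. The log2 change between gates was -1.64 in WT and -3.66 in KO for Fbln1, -0.63 and -3.99 for Postn, 0.23 and -1.30 for Vcan, and -0.46 and -5.62 for Sparc.

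Per length of exon sequence the set was led by Tnc in each group. In CPM per kilobase of merged exons (RPKM), Tnc stood at 149 ± 21.4 in WT mTEClo (SD, n = 8), 179 ± 27.1 in KO mTEClo (n = 4), 137 ± 11.6 in WT mTEChi (n = 7) and 194 ± 8.01 in KO mTEChi (n = 4). These values made up 59.9%, 66.8%, 68.97% and 96.2% of the sum over the 10 genes. In WT mTEClo, Fbn1 at 43.7 ± 4.48 RPKM and Sparc at 28.9 ± 3.46 RPKM came next, each apart from its neighbour, and Fbln1 followed at 12.8 ± 3.18 RPKM. With the longest transcript as the length, Sparc at 47.6 RPKM was above Fbn1. Lower down, from Fbln1 to Fbln2, each neighbouring pair overlapped. In KO mTEClo the order after Tnc was Sparc (32.5 ± 5.14 RPKM), then Fbln1 and Fbn1, which overlapped at 21.1 ± 1.46 and 20.9 ± 3.58 RPKM.

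In WT mTEChi, Sparc was next after Tnc at 20.9 ± 2.02 RPKM. Fbn1, Acan, Vcan, Ibsp, Fbln2, Fbln1 and Postn followed between 8.53 and 1.51 RPKM with each neighbour in that order overlapping, and Fbn2 was last at 0.73 ± 0.21 RPKM. In KO mTEChi, Fbn1 was second at 2.96 ± 0.28 RPKM, then Fbln1 at 1.68 ± 0.86, Vcan at 1.26 ± 0.42 and Sparc at 0.64 ± 0.24 RPKM, each of these 3 overlapping the next. Sparc thus went from the second to the fifth place in mTEChi. Summed over all 10 genes, the level was 1491 ± 86.7 CPM in WT mTEChi and 1581 ± 61.7 CPM in KO mTEChi. In mTEClo it was 2029 ± 213 CPM in WT and 2000 ± 264 CPM in KO. These sums consist mostly of Tnc. Summed over the 9 genes other than Tnc, the level was 429 ± 36.97 CPM in WT mTEChi and 73.5 ± 5.34 CPM in KO mTEChi. The same sum was 870 ± 74.1 CPM in WT mTEClo and 607 ± 60.6 CPM in KO mTEClo.

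**Figure D3:**
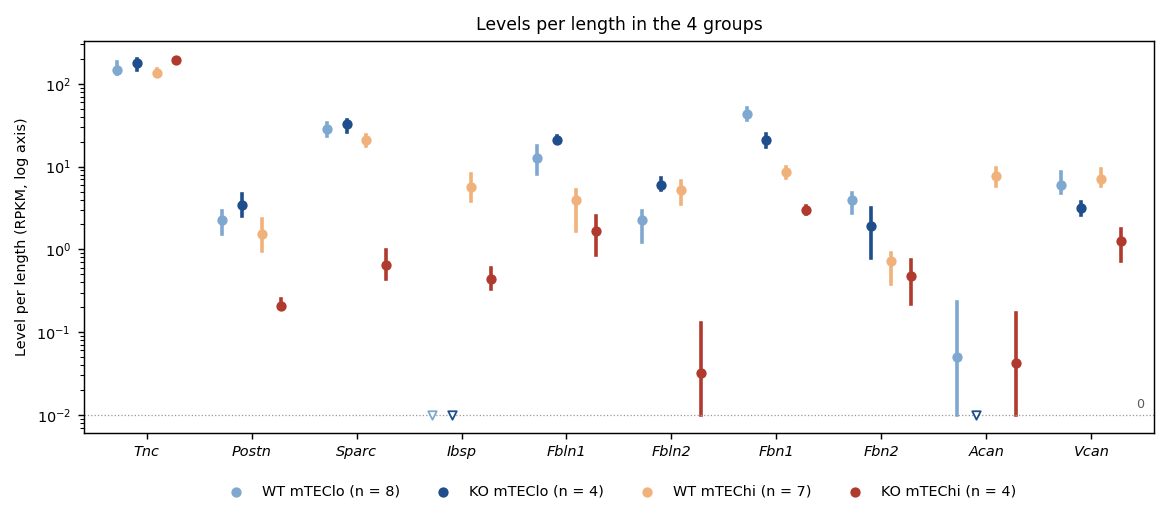
Level per length of each gene in the 4 groups, in RPKM on a log axis. Points are group means, lines run from the lowest to the highest library, and values of 0 are drawn on the dotted line at the bottom, as open triangles where all libraries are at 0. Tnc lies above the others in each group, and Ibsp and Acan are at or near 0 in both mTEClo groups.

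Sex and age were compared as well, in the WT libraries, and neither was used to choose the genes. None of the 10 passed between female and male libraries with edgeR or with DESeq2, and 0 had an unadjusted p under 0.05. Their log2 differences ran from -0.15 for Tnc to 0.24 for Fbln1, and among all genes 0.0414% passed (0.0155% higher and 0.0259% lower in females). Between 5 and 4 weeks, 3 of 10 passed, all higher at 5 weeks, where 6.92% of 17188 genes passed in either direction and 3.74% as higher (3.18% as lower). Fbln2 differed by 0.62 ± 0.15 (edgeR adjusted p = 0.015), with means of 23.2 CPM at 4 weeks (n = 2) and 37.3 CPM at 5 weeks (n = 5) in mTEChi, and 12.9 (n = 5) and 16.7 CPM (n = 3) in mTEClo. Fbln1 differed by 0.57 ± 0.16 (adjusted p = 0.036) and Sparc by 0.27 ± 0.08 (adjusted p = 0.032). In mTEChi both libraries of 4 weeks had under 2000000 counts, and without the 6 libraries of that depth 0 of the 10 passed. The count was also 0 without WT mTEClo replicate 5 or WT mTEChi replicate 2, and 1 without WT mTEClo replicate 6 or 7 or WT mTEChi replicate 1 or 7.

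Other genes of the matrix were counted from 8 lists with 98 symbols, of which 93 were tested and none is in the set. In KO mTEChi 57 of the 93 passed as lower (61.3%) and 10 as higher (10.8%), with a median log2 change of -1.19. The median of all genes tested was -0.01, and 28% and 25.7% of all genes passed. With the 3 genes at 0 in KO set to their limit of 3 counts the median was the same. Of the 57, 16 reached the filter only through WT mTEChi, where they were high. Without genes of that kind 41 of 76 passed as lower (53.9%) and 10 as higher (13.2%), where 22.8% and 28.4% of all genes did. In mTEClo 10 passed as lower (10.8%) and 21 as higher (22.6%), where 9.69% and 12% of all genes did. The median of the 93 there was 0.02. The count of 21 in mTEClo fell to 4 with an age term and to 13 without KO mTEClo replicate 3. The change in mTEChi minus that in mTEClo passed as lower in 44 of 93 (47.3%) and as higher in 6 (6.45%), where 14% and 10.8% of all genes did. Those counts include the genes that reached the filter only through WT mTEChi. Of the 5 tested members with counts in both gates, 3 passed in that difference, all as lower, where 24.8% of all genes passed.

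**Figure D4:**
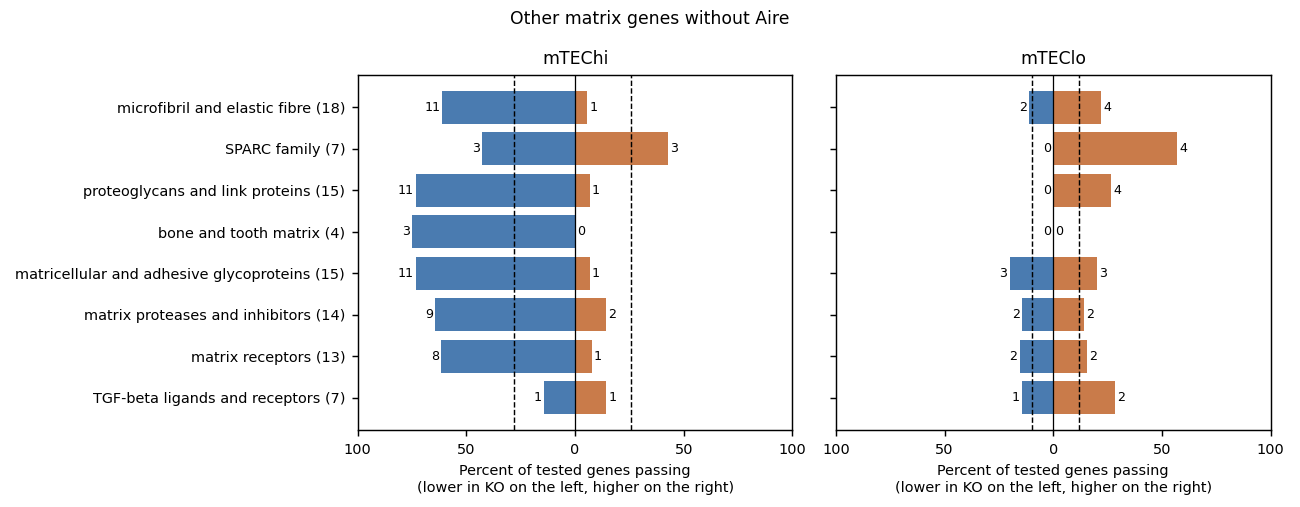
Share of the tested genes of each matrix list that passed as lower (blue, left) or higher (orange, right) in KO, for mTEChi and mTEClo, with the number of genes at the end of each bar and the number tested in brackets. Dashed lines are the shares over all genes, 28% lower and 25.7% higher in mTEChi and 9.69% and 12% in mTEClo. In mTEChi the bars of 7 of the 8 lists pass the dashed line on the left, and the TGF-beta list has 1 gene on each side. The bars include genes that reached the filter only through WT mTEChi.

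In KO mTEChi the microfibril and elastic fibre list, which holds the partners of the fibrillins and fibulins, had 11 of 18 lower and 1 higher. Of those 11, 3 reached the filter only through WT mTEChi, and without genes of that kind 8 of 15 were lower. Hmcn2, a giant protein related to the fibulins, went from 134 ± 32.5 CPM (SD, n = 7) to 8.32 ± 0.98 CPM (n = 4), a change of -3.91 ± 0.26 (edgeR adjusted p = 8.1e-12). Ltbp2, a microfibril-associated binding protein, rose by 0.60 ± 0.10 in mTEChi (adjusted p = 2.0e-05) and fell by 0.93 ± 0.11 in mTEClo (adjusted p = 3.6e-07). Fbln5, another fibulin, rose by 1.41 ± 0.25 in mTEClo (adjusted p = 1.6e-04).

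The SPARC family split, with 3 of 7 lower and 3 higher in KO mTEChi. In KO mTEClo 4 were higher and 0 lower, where 12% and 9.69% of all genes passed. Among the 3 lower genes in KO mTEChi, 1 reached the filter only through WT mTEChi, and without it 2 of 6 were lower. Smoc2 fell by 1.78 ± 0.20 in mTEChi (adjusted p = 1.7e-08). Spock1, a testican proteoglycan, rose from 130 ± 10.8 to 307 ± 17.4 CPM in mTEChi (1.22 ± 0.12, adjusted p = 9.7e-10) and from 18.5 ± 3.73 to 60.5 ± 14.1 CPM in mTEClo (1.72 ± 0.14, adjusted p = 6.6e-10).

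Of the proteoglycans and link proteins, 11 of 15 passed as lower in KO mTEChi and 1 as higher. Of those 11, 5 reached the filter only through WT mTEChi, among them Aspn, a small leucine-rich proteoglycan, with 18.4 ± 4.13 CPM in WT mTEChi and 0.91 ± 0.24 CPM in KO mTEChi. Hspg2, the perlecan of basement membranes, rose by 1.34 ± 0.20 (adjusted p = 8.4e-06). Hapln1, the link protein that fixes aggrecan to hyaluronan, rose in KO mTEClo from 0.58 ± 0.62 to 8.35 ± 9.39 CPM (3.99 ± 0.62, adjusted p = 5.1e-05), with an SD in KO above its mean. In the bone and tooth list 3 of 4 tested genes were lower in KO mTEChi, and Spp1, the osteopontin gene, had a mean of 93.4 ± 12.7 CPM without the knockout and of 4.68 ± 4.87 CPM with it. In WT mTEClo Spp1 was at 1.50 ± 1.33 CPM, and like Ibsp it reached the filter only through WT mTEChi and is given without a test.

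Of the matricellular and adhesive glycoproteins 11 of 15 were lower in KO mTEChi and 1 higher. Among those 11, 2 reached the filter only through WT mTEChi, and without genes of that kind 9 of 13 were lower. Tgfbi, an adhesion protein related to periostin, fell by 1.49 ± 0.13 in mTEChi (adjusted p = 2.9e-10) and by 0.89 ± 0.10 in mTEClo (adjusted p = 2.6e-07). Thbs2, a thrombospondin, rose by 1.03 ± 0.18 in mTEChi (adjusted p = 2.1e-05). Matrix proteases and their inhibitors had 9 of 14 lower and 2 higher in KO mTEChi, with Timp2 at -2.04 ± 0.20 (adjusted p = 1.3e-09) and Timp3 at 0.42 ± 0.10 (adjusted p = 8.9e-04). Among those 9, 3 reached the filter only through WT mTEChi, and without genes of that kind 6 of 11 were lower. Matrix receptors had 8 of 13 lower and 1 higher, with the integrin gene Itga8 at -2.30 ± 0.21 (adjusted p = 7.2e-10). TGF-beta ligands and receptors had 1 of 7 on each side, and the lower one, Eng, reached the filter only through WT mTEChi.

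Markers of other cell types that make matrix were counted too. The fibroblast list of 12 genes summed to 340 to 549 CPM in WT mTEChi and 203 to 224 CPM in KO mTEChi, and to 72.5 to 106 CPM in WT mTEClo and 86.6 to 213 CPM in KO mTEClo. In KO mTEChi 7 of its 10 tested genes passed as lower and 1 as higher, where 28% and 25.7% of all genes did. Marker genes that reached the filter only through WT mTEChi were not set apart in these counts. Col1a1, the main collagen of fibroblasts and bone, was at 50.8 to 182 CPM in WT mTEChi and 0.42 to 1.32 CPM in KO mTEChi, while Pdgfrb was at 79.2 to 130.1 and 96.5 to 126 CPM and Dcn at 25.2 to 40.2 and 59.2 to 94.0 CPM. Twist2 was at 0 in KO mTEChi and in WT mTEClo. The chondrocyte and osteoblast list of 16 genes summed to 288 to 432 CPM in WT mTEChi and 246 to 308 CPM in KO mTEChi, with 12 of 14 tested genes lower and 1 higher. Its Col2a1, the collagen of cartilage, went from 40.5 ± 15.95 to 5.01 ± 2.13 CPM, and Sox9, the chondrocyte regulator, from 98.6 ± 19.9 to 202 ± 21.5 CPM. Matn1 of the same list went from 20.99 ± 5.48 to 9.54 ± 3.09 CPM. In mTEClo that list summed to 311 to 427 CPM in WT and 482 to 541 CPM in KO, with Matn3, Bglap and Bglap2 at 0 in WT and Sp7, Bglap and Bglap2 at 0 in KO. The part of such cells in the values of the set was not tested.

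The remaining marker lists were summed in the same way for WT and KO mTEChi. Among all genes 28% passed as lower and 25.7% as higher in KO mTEChi, and 9.69% and 12% in KO mTEClo. Here too, marker genes that reached the filter only through 1 group were not set apart. Pericyte and smooth muscle genes summed to 819 to 1003 CPM in WT and 891 to 1081 CPM in KO, with 3 of 8 lower and 2 higher. Endothelial genes summed to 71.6 to 113 and 51.96 to 74.6 CPM (5 of 7 lower, Tie1 at 0 in KO), cortical TEC genes to 423 to 467 and 430 to 508 CPM (4 of 7 lower, 2 higher), and thymocyte genes to 111 to 134 and 70.2 to 111 CPM (5 of 7 lower). Dendritic cell and macrophage genes summed to 302 to 362 and 346 to 390.1 CPM (5 of 7 lower, 1 higher) and B cell genes to 60.0 to 89.4 and 107 to 150 CPM (1 of 4 lower, 2 higher). Lyz2 of the macrophage list had means of 191.7 CPM in WT mTEChi and 289.7 CPM in KO mTEChi. Sirpa had 42.14 and 43.58 CPM there and Csf1r 46.75 and 30.26 CPM. Thymic epithelial genes summed to 2542 to 3212 and 2788 to 3509 CPM (1 of 10 lower, 4 higher). In mTEClo, where Fbln1 and Fbln2 were higher in KO, the summed levels of 3 of these lists were also higher in every KO library. Cortical TEC genes summed to 435 to 538 CPM in WT mTEClo and 584 to 763 CPM in KO mTEClo (5 of 7 higher, 0 lower). Dendritic cell and macrophage genes summed to 61.96 to 99.2 and 117 to 159 CPM (1 of 7 higher, Clec9a at 0 in KO). B cell genes summed to 12.8 to 19.5 and 23.8 to 36.9 CPM (2 of 4 higher). Lyz2 of the macrophage list went from a mean of 34.2 ± 9.04 to 88.9 ± 14.9 CPM in mTEClo. Sirpa of that list was at 42.35 and 43.05 CPM and Csf1r at 6.39 and 5.58 CPM. Endothelial genes summed to 49.7 to 73.3 and 63.2 to 101 CPM (2 of 7 higher, 1 lower, with Cdh5 and Tie1 at 0 in KO), and thymocyte genes to 29.6 to 40.7 and 18.2 to 31.6 CPM (1 of 7 lower). Pericyte and smooth muscle genes summed to 1258 to 1601 and 1142 to 1678 CPM (2 of 8 higher, 2 lower) and thymic epithelial genes to 2109 to 3681 and 2303 to 3850 CPM (1 of 10 higher). The part of these cell types in the mTEClo values of the set was not tested.

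The genes most like Sparc, Fbln2, Fbn1 and Acan over the 23 libraries were taken as those with the highest Pearson correlation of log2 CPM among 15116 genes. The libraries fall into the 4 groups and share their depth, so the correlation mostly reads the group means, and it is given as a description. For Sparc they were Ephb2 (r = 0.98), Unc5b (0.97) and Arpp21 (0.96). Ephb2 stood at 17.7 and 15.6 CPM in WT and KO mTEClo and at 14.5 and 0.39 CPM in WT and KO mTEChi. For Fbln2 they were Otof (0.98), Tln2 (0.95) and Trp73 (0.95), with Otof at 18.1, 26.03, 33.5 and 0.60 CPM in the same order. Fbn1 was closest to Tgfbi (0.99), Ddx58 (0.99) and Etnk1 (0.99), and Tgfbi stood at 345, 188, 50.9 and 18.3 CPM. Acan was closest to Cytl1 (0.99), a cartilage cytokine-like protein, and to Alb (0.99) and Fgb (0.99), both known from liver. Cytl1 stood at 30.2 CPM in WT mTEChi and 0.25 CPM in WT mTEClo and was listed at 0 in both KO groups.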

How the data were processed

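Counts per Ensembl gene were used as deposited by the authors, 1 column for each of 23 libraries, and a normalized table was not used here. The submitters' processing notes name HTSeq 0.11.2, Picard 2.21.1, STAR 2.7.3a, edgeR, fastp 0.20.0 and SAMtools 1.9, with the builds mm10 and GRCm38 and no roles. Per the labels' protocols the libraries came from random and oligo dT priming and Tn5, which keeps no strand, so reads of overlapping genes cannot be told apart. The members, the gene lists and the tests were chosen with earlier results of these data known.

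Genes were filtered with filterByExpr (minimum count 10, by group), which left 19310, and fitted with edgeR 4.0.16 in R 4.3.3 (TMM, robust quasi-likelihood) over all libraries with terms for group and sex. The age comparison used the 15 WT libraries with terms for gate, sex and age, and 17188 genes. Calls used p-values adjusted by Benjamini and Hochberg over every gene tested, below 0.05. The SE is the log2 change divided by the square root of F. The fit was tested on simulated counts. A group with 0 counts was given a limit of 3 counts, and 1 to 3 counts gave a ratio with its exact 95% interval. Genes that reached the filter only through WT mTEChi are described without a test where named. Lengths are merged exons of GENCODE on GRCm38.

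The named genes were all members, Aire, Epcam and Ptprc, from each matrix list the gene with the smallest p in each direction, from each cell type list up to 3 genes with the highest mean CPM, and the 3 genes most like each of the 4 first members among those with a mean of at least 5 CPM. Not every gene picked from the matrix and cell type lists is named in the text. Marker genes at 0 in a group are named as well. Alternatives were DESeq2 1.42.0, RLE factors, an adjusted p under 0.01, no filter, no sex term, an age term, the replicate block, male libraries only, leaving out each library, and leaving out or fitting the 6 libraries under 2000000 counts. Chosen after the data were seen were a term for, or leaving out, the 6 libraries without mitochondrial counts, male libraries of 5 weeks only, and the block within the KO libraries. Replicate numbers recur in all groups. Deviations from the group means of same-numbered KO libraries of the gates correlated at 0.139 to 0.222 in 4 pairs, all over 0.1. In 3 of the 4 the same number was the best match. KO replicates 1 and 2 were of 5 weeks and 3 and 4 of 6 weeks in both gates, so pairing and shared age cannot be told apart. The block within the KO libraries assumes pairing, which the labels do not give. Pairs of other groups correlated at -0.179 to 0.098.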

Additional observations from a re-analysis of the deposited data

Results flagged for a closer look

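Within groups of 4 to 8 libraries, 37 sets of values were screened for 1 library far from the others, a screen in which chance flags about 1 in 20, and 5 were found. Fbln2 in KO mTEChi replicate 2 (0.82 CPM, the others at 0) and Acan in KO mTEChi replicate 4 (1.25 CPM, the others at 0) rest on 2 and 3 counts. Where all other libraries are at 0, any count is flagged, so the rate of 1 in 20 does not hold for such sets. Acan in WT mTEClo replicate 1 was at 1.72 CPM, Vcan in WT mTEClo replicate 2 at 124.0 CPM and Postn in KO mTEChi replicate 1 at 2.19 CPM.

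The KO change differed between the gates in 3 tested genes. The change in mTEChi minus that in mTEClo was -2.03 for Fbln1 (edgeR adjusted p = 8.9e-05), -1.53 for Vcan (adjusted p = 2.7e-05) and -3.36 for Postn (adjusted p = 1.7e-07). Fbln2 moved in opposite directions in every library, from a mean of 33.3 CPM in WT to 0.20 CPM in KO in mTEChi and from 14.4 to 37.8 CPM in mTEClo, and this difference was not tested because its values chose the gene.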

How the results depend on the processing

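The numbers of genes called between KO and WT mTEChi ranged from 9623 to 10844 over 23 fits that each left out 1 library, and those between KO and WT mTEClo from 3126 to 4290. With a term for the 6 libraries without mitochondrial counts the first was 6872. The second was 2240 at an adjusted p under 0.01, 1504 with an age term and 1688 in male libraries of 5 weeks, and the difference between the gates gave 2856 at 0.01 and 2478 in those libraries. The WT age comparison, 1189 genes, gave 179 at 0.01, 315 with the replicate block, 604 without the 6 libraries under 2000000 counts, 262 in males, and 388 to 1851 when 1 library was left out (388 without WT mTEChi replicate 2, 396 without WT mTEChi replicate 1, 507 without WT mTEClo replicate 5, 1851 without WT mTEClo replicate 1). Changes that reversed were those of Fbn2 in mTEChi (1.22 with the mitochondrial term, 0.18 in males of 5 weeks), Sparc in mTEClo (-0.20 with an age term, -0.013 with the mitochondrial term, -0.0013 without those 6 libraries, -0.23 in males of 5 weeks) and Tnc between the KO gates (-0.029 in males of 5 weeks). The causes were not tested. In the main fit Tnc between the KO gates was 0.12 ± 0.11 and did not pass (edgeR adjusted p = 0.38). It passed as higher in mTEChi without the 6 libraries under 2000000 counts (0.30, adjusted p = 0.0023) and with a term for them (0.29, adjusted p = 7.5e-04). With the mitochondrial term it passed as well (0.31, adjusted p = 0.02). That term is the same as the genotype within mTEChi, so its size rests on KO mTEClo replicates 3 and 4 against 1 and 2. The 6872 genes, and the mTEChi and KO gate values under that term, carry this split, which age and depth share. With the mitochondrial term Ibsp could not be fitted in mTEChi, as it had no counts in mTEClo. The 5-week male fit had 1 WT mTEClo library, assumed to vary like the other groups. With the replicate block the sex comparison gave 5 genes instead of 8, and no member call changed other than those of Tnc in mTEClo (0.21, adjusted p = 0.048), Tnc between the WT gates (-0.14, adjusted p = 0.047) and the 3 age calls, which did not pass. In the KO libraries alone the block gave 9283 genes between the gates. Of 538 member values under alternatives other than leaving out a library, 488 kept direction and call within the limits set, 9 more kept their direction but moved by more than the spread, 24 gained a call, 10 lost one and 7 reversed, the calls of Ibsp included. Counts under 4 limit Acan, Fbln2 and Ibsp to ratios or limits.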
